A study of Homo sapiens and Mus musculus with 20 samples.

Results

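The histone deacetylases of classes I, II and IV are the zinc-dependent enzymes that remove acetyl groups, and class I members also lactyl groups, from lysines of histones and other proteins. The members were chosen by symbol, as 10 of the 17554 genes listed in at least one of the 12 IMR90 libraries: HDAC1, HDAC2, HDAC3 and HDAC8 (class I), HDAC4, HDAC5, HDAC7 and HDAC9 (class IIa), HDAC6 (class IIb) and HDAC11 (class IV). HDAC10, also of class IIb, was not listed in every experiment and is no member here. IMR90 is a normal human fetal lung fibroblast line, wild type in every library. RNA was sequenced from untreated cells and from cells given A485, an inhibitor of the lysine acetyltransferases p300 and CBP, MS-275, which inhibits deacetylases of class I, or pyruvate, a metabolite that lactate dehydrogenase turns into lactate. Each treatment had its own untreated control, Control2 for A485, Control3 for MS-275 and Control6 for pyruvate, with 2 libraries in each of the 6 groups. According to the study's text the pyruvate experiment used senescent cells, while the labels gave no passage, dose or time for any group. The labels did not say whether the 2 libraries of a group came from separate cultures, so the p-values measure the spread between these libraries, which may be technical. The comparisons asked whether the deacetylase genes themselves changed when a lactylation writer or eraser was inhibited or when the lactate precursor was added.

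Class I enzymes sit mostly in the nucleus. HDAC1 and HDAC2 are close relatives and form the catalytic core of the NuRD, SIN3, CoREST and MiDAC corepressor complexes, HDAC3 works with corepressors such as NCOR1, and HDAC8 acts alone and deacetylates the cohesin subunit SMC3. Class IIa enzymes have little deacetylase activity of their own. They bind MEF2 transcription factors and move to the cytoplasm when kinases of the SIK, PKD and CaMK families phosphorylate them and 14-3-3 proteins hold them there. HDAC6 is a cytoplasmic deacetylase of tubulin, cortactin and HSP90, and HDAC11, the only class IV member, removes long fatty acyl groups.

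Between 24179065 and 46971227 reads per library fell on listed genes, and 100% of the deposited values came out as whole reads when divided by the value of a single read (tolerance 0.001). The 10 fibroblast markers were all listed in each table, with summed normalized counts of 580072 to 2267290 a library. Summed normalized counts lay between 1265 and 3595 for epithelial, between 127 and 1469 for endothelial and between 0 and 24.9 for blood markers. Of the 5 markers of each of these types, 4, 3 and 1 were listed in the A485 and MS-275 experiments. In the pyruvate experiment 2, 2 and 0 were listed, so these sums rest on few genes. Beside the A485 results below, 8 of the 10 fibroblast markers were called lower after A485, and their sum went from between 1896220 and 2267290 to between 580072 and 706853. The sum of the smooth muscle markers ACTG2 and DES went from between 21507 and 25333 to between 241 and 351. Only ACTG2 was called lower, while DES was higher and did not pass, and the marker MYH11 was not listed. The fall of this sum is thus that of a single gene. The part of the fibroblast or the smooth muscle markers in the A485 results was not tested. In bulk RNA, fewer cells with a transcript and less transcript per cell cannot be told apart.

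Promoter sequences are shown for HDAC2, HDAC3, HDAC9 and HDAC11, the members that were called in the pyruvate comparison described further on, and for HDAC1 as the closest relative of HDAC2. The sequences come from RefSeq (GRCh38.p14), which gave 19 promoters for 9 of the members. Each is the longest stretch, within the 250 bases before the RefSeq start farthest upstream, that lies outside annotated exons, written 5′ to 3′ on the gene's strand. HDAC1 lies at chr1:32291833-32292082 on the plus strand, HDAC2 at chr6:113971158-113971398 on the minus strand, HDAC3 at chr5:141636850-141636949 on the minus strand, HDAC9 at chr7:18086575-18086824 on the plus strand and HDAC11 at chr3:13480117-13480214 on the plus strand. Capitals mark GGGCGG, the core of an Sp1 GC box, and CCAAT, the core of a CCAAT box, on either strand.
HDAC1: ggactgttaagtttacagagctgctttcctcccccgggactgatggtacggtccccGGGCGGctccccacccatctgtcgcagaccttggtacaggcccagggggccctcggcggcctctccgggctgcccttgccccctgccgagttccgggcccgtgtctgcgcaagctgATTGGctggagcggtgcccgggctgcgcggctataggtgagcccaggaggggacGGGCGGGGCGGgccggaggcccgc
HDAC2: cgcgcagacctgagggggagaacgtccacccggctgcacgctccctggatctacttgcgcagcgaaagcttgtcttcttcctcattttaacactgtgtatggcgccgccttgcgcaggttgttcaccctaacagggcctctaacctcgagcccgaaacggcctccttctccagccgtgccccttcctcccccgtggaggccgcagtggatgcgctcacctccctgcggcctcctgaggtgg
HDAC3: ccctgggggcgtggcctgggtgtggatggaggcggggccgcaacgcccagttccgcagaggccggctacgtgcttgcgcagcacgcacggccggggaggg
HDAC9: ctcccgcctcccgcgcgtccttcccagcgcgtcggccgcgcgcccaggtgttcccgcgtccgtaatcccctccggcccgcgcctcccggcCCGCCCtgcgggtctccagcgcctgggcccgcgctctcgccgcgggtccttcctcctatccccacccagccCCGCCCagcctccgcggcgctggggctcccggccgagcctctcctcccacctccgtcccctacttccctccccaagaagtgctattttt
HDAC11: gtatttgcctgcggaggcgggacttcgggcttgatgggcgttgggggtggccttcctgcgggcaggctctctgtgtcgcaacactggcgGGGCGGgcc
These stretches held 71.6% GC for HDAC1, 63.5% for HDAC2, 76.0% for HDAC3, 75.2% for HDAC9 and 69.4% for HDAC11, against a median of 58.0% over the 250 bases before the start of all 35116 promoters in the table. Over the whole 250 bases, GGGCGG occurred 3 times for HDAC1, 5 times for HDAC11, 2 times for HDAC9 and 1 time for HDAC3, and did not occur for HDAC2. It was present in 42.6% of all promoters of that length. CCAAT occurred 1 time for HDAC1 and not for the other 4, against 32.0% of all promoters. None of these 5 windows held a TATA box (TATAAA, in 10.7% of all promoters), an E-box (CACGTG, in 6.3%), an ETS site (CCGGAAGT, in 3.4%) or a cyclic AMP response element (TGACGTCA, in 1.6%), searched on both strands. The HDAC3 window also held exon bases of RELL2, a gene that starts there in the opposite direction.

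In untreated IMR90 cells HDAC1 was the most abundant deacetylase transcript, and class I genes held most of the family's message. Levels between genes were compared per length, as reads per kilobase of exon, scaled to the library total (RPKM), and their percentile was taken among the 11869 genes listed in all 3 tables. HDAC1 measured 36.2 and 32.3 RPKM in Control2, 28.4 and 40.5 in Control3 and 48.4 and 47.8 in Control6. It stood first in each control group, above HDAC3 in every library, at percentiles between 89.5 and 93.5. HDAC3 measured 11.3 and 10.8 RPKM in Control2, 9.97 and 17.0 in Control3 and 22.5 and 23.5 in Control6, which placed it second in each group. The ranges of HDAC3 and HDAC2 overlapped in Control3.

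HDAC2 was among several members whose level in Control6 lay outside that of the other controls. It measured 10.5 and 8.67 RPKM in Control2 and 10.1 and 8.79 in Control3, the third place in both, but 0.666 and 0.794 RPKM in Control6, where it took place 8. Its percentile was between 66.2 and 70.3 in Control2 and Control3 and was 25.7 and 28.1 in Control6. HDAC9 was also lower, at 0.0614 and 0.128 RPKM in Control6 against 0.400 to 0.978 in Control2 and Control3. HDAC11 was higher, at 9.29 and 8.90 RPKM against 3.02 to 5.74. The 3 tables were normalized separately, so these differences between control groups were not tested. The longest transcripts of HDAC2 and HDAC9 hold 37.8% and 40.4% GC and that of HDAC11 holds 60.6%. The part of GC content in these differences was not tested either.

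**Figure D1:**
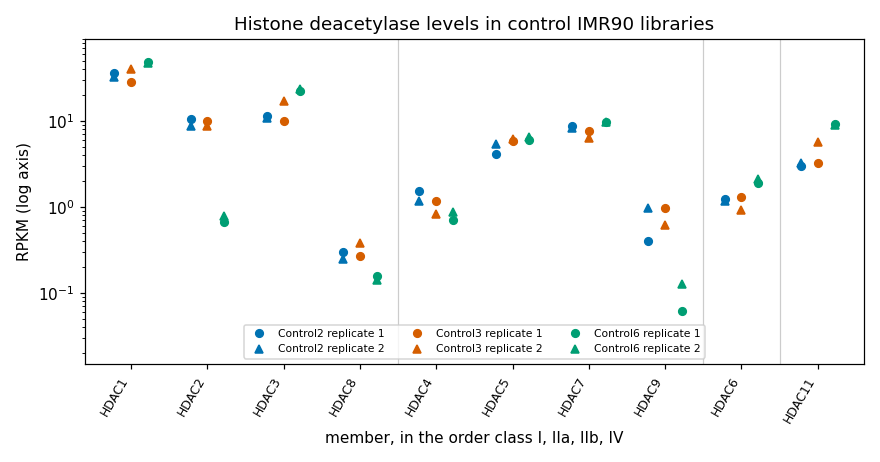
RPKM of each member on a log axis in the 6 untreated libraries, with 1 point for each library and colours for Control2, Control3 and Control6. HDAC1 lies highest in every group, and HDAC2 lies near 10 RPKM in Control2 and Control3 and at 0.666 and 0.794 RPKM in Control6.

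Among class IIa genes HDAC7 was the most abundant in every control library, with 6.42 to 9.78 RPKM, followed by HDAC5 with 4.12 to 6.49 RPKM. HDAC4 measured 0.702 to 1.55 RPKM and HDAC9 0.0614 to 0.978 RPKM, and their ranges overlapped in Control3. HDAC9, which in muscle and brain is a repressor of MEF2 targets, was the lowest member in Control6, at 0.0614 and 0.128 RPKM, and HDAC8 was the lowest in Control2 and Control3, at 0.252 to 0.385 RPKM. HDAC6 measured 0.920 to 2.09 RPKM and HDAC11 measured 3.02 to 9.29 RPKM. Class I genes held 70.7% to 76.4% of the summed RPKM of the 10 members in the 6 control libraries, class IIa genes 16.0% to 22.7%, HDAC11 3.90% to 9.36% and HDAC6 1.05% to 2.08%. The RPKM depended on the length used: per base of the longest transcript, HDAC8 in Control2 went from 0.276 to 1.11 RPKM, HDAC6 from 1.21 to 3.025, HDAC3 from 11.1 to 26.1 and HDAC2 from 9.58 to 15.1.

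On the deposited normalized counts after A485, the class I genes HDAC1, HDAC2 and HDAC3 had means close to those of their controls. The class IIa gene HDAC5 was called lower, and no member was called higher. Called genes had an adjusted p under 0.05 in limma (Benjamini-Hochberg, 16084 genes) and a change of over 1 on the log2(normalized count + 1) scale, which understates the change of low genes. HDAC5 was the only member called lower (1 of 10 members, against 7.06% of all genes called lower), and 0 of 10 were called higher, against 3.31% of all genes. At an adjusted p under 0.05 with no minimum change, 2 members passed, HDAC5 and HDAC7, against 12.6% of all genes. In 8 members, 4 higher and 4 lower, the A485 and the control libraries did not overlap, which held for 61% of all genes. The median change was -0.067 over the members and 0.0088 over all genes.

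HDAC5 (chr17:44076746-44123702), a class IIa enzyme that represses MEF2 targets, measured 1357 and 1967 normalized counts in Control2 and 764 and 614 in A485 libraries. The groups did not overlap, and the log2 fold change was -1.25 (SE 0.25, adjusted p 0.0306). The call rested on few libraries. Without Control2 replicate 2 the change was -0.99 (adjusted p 0.0906), without A485 replicate 1 it was -1.41 (adjusted p 0.144) and without A485 replicate 2 it was -1.10 (adjusted p 0.176). HDAC5 shares 24.0% of its exon bases with G6PC3, a glucose-6-phosphatase gene on the opposite strand, and whether counting used strand was not stated. G6PC3 had a log2 fold change of -0.031 after A485 (adjusted p 0.918).

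HDAC7 (chr12:47782722-47833132), known for its role in endothelial cells and thymocytes, measured 3763 and 3933 normalized counts in Control2 and 2349 and 2468 in A485 libraries. The log2 fold change of -0.68 passed the adjusted p (SE 0.16, adjusted p 0.0437) but was short of the minimum change for a call. With any 1 library left out the adjusted p was 0.0943 to 0.232, and with equal library totals the change was -0.28 (adjusted p 0.260). HDAC9 (chr7:18086949-19002416) measured 299 and 807 in Control2 and 56.5 and 267 in A485 libraries. Its log2 fold change of -1.99 was the lowest among the members but did not pass (SE 0.81, adjusted p 0.161), since both groups were widely spread. With 1 library left out it ran from -3.10 to -0.87, and without A485 replicate 1, which gave -0.87, HDAC5 was lower, at -1.41. HDAC4 (chr2:239048168-239401654) measured 949 and 791 in Control2 and 672 and 764 in A485 libraries, which gave a log2 fold change of -0.27 (adjusted p 0.438). All 4 class IIa genes were thus lower in both A485 libraries than in both control libraries, and 2 of the 4 passed the adjusted p, a direction that turned for HDAC4 under another scaling. When library totals were made equal in place of the deposited size factors, all genes had a median of 0.40, HDAC4 turned to 0.12 and HDAC5 was at -0.86.

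Of the class I genes, HDAC1 (chr1:32292083-32333635) measured 6197 and 6137 normalized counts in Control2 and 6009 and 6259.8 in A485 libraries. The groups overlapped, and the difference was -0.0079 on the log2 scale, with a 95% interval from -0.38 to 0.37. HDAC2 (chr6:113933028-114011308) measured 6955 and 6374 in Control2 and 7011 and 5309 in A485 libraries, which also overlapped (log2 fold change -0.13, 95% interval -0.60 to 0.35). HDAC3 (chr5:141620876-141636849) measured 2260.2 and 2385 in Control2 and 2598 and 2568 in A485 libraries. Both A485 values of HDAC3 were higher, by 0.15 on the log2 scale (95% interval -0.24 to 0.54), and this did not pass (adjusted p 0.561). Scaled to library totals these genes stood higher after A485. HDAC1 went from 36.2 and 32.3 RPKM in Control2 to 45.6 and 43.7 in A485 libraries. HDAC3 went from 11.3 and 10.8 to 16.9 and 15.4, and HDAC2 from 10.5 and 8.67 to 13.8 and 9.58, with overlap. HDAC8 (chrX:72329516-72573101) measured 298 and 277 in Control2 and 493 and 364 in A485 libraries, which gave a log2 fold change of 0.56 (SE 0.28, adjusted p 0.233).

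HDAC6 (chrX:48801377-48824982), the tubulin deacetylase, had the highest log2 fold change among the members after A485. It measured 775 and 825 normalized counts in Control2 and 1364 and 1268 in A485 libraries, with both A485 values above both controls. The log2 fold change of 0.72 was short of the minimum change and its adjusted p was 0.0577 (SE 0.19). With equal library totals HDAC6 was at 1.11 and was called (adjusted p 0.0144). Without A485 replicate 2 HDAC8 stood above HDAC6, at 0.78 against 0.77. HDAC11 (chr3:13479724-13506424) measured 682 and 816 in Control2 and 1000.4 and 1039 in A485 libraries, which gave a log2 fold change of 0.45 (SE 0.20, adjusted p 0.198).

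**Figure D2:**
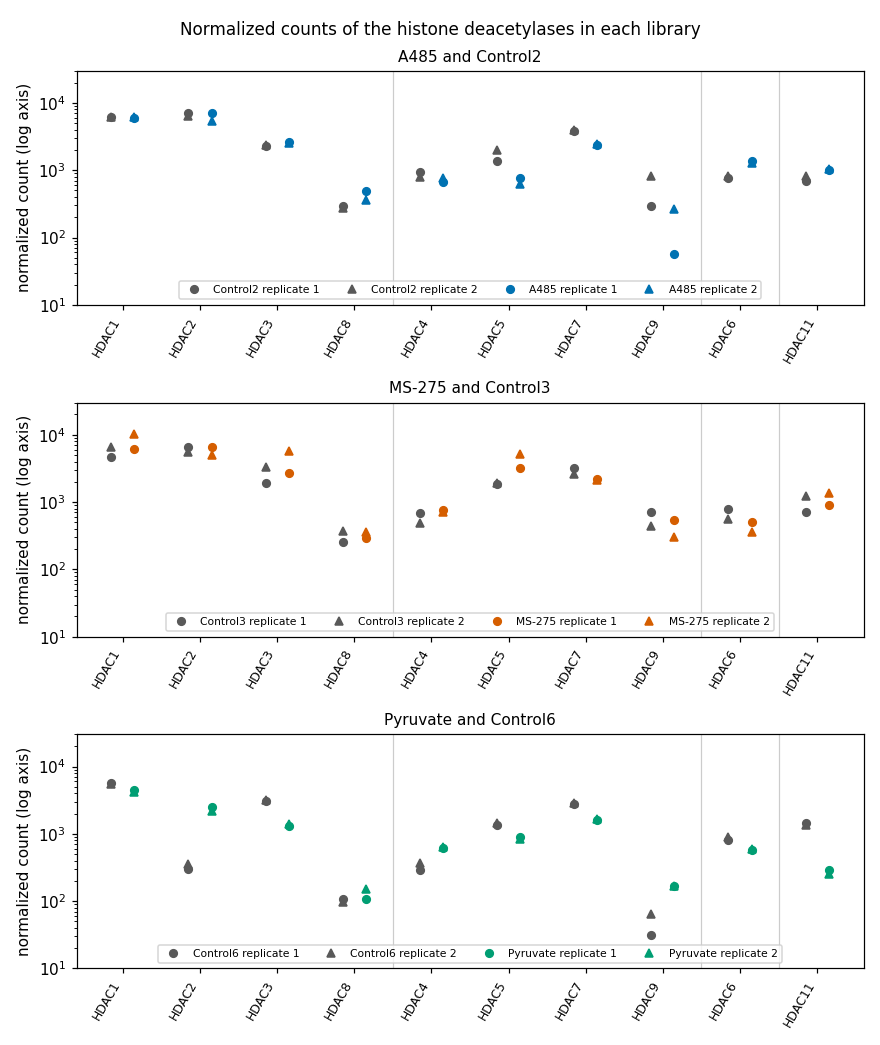
Normalized counts of the 10 members on a log axis in each of the 12 libraries, in a panel for each comparison, with grey points for control and coloured points for treated libraries. After pyruvate HDAC2 rises from 303 and 358 to 2493 and 2167, and after A485 HDAC5 lies at 764 and 614 against 1357 and 1967 in Control2.

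Among the partners of the deacetylases, TBL1X, a subunit that carries the HDAC3 corepressor complex to its targets, was called lower after A485. It measured 3153 and 3712 normalized counts in Control2 and 1044 and 1432 in A485 libraries, which gave a log2 fold change of -1.48 (adjusted p 0.0126). Of the CoREST list 1 of 9 genes was called lower, RCOR2, at -2.70 (adjusted p 0.0273). In the NuRD (11 genes), SIN3 (13 genes) and MiDAC (3 genes) lists and among the 18 class IIa partners and kinases and the 5 genes of cohesin acetylation, 0 genes were called. The genes with the smallest p there were MBD3 at 0.82 (adjusted p 0.0554), BRMS1 at -0.73 (adjusted p 0.0444), TRERF1 at -0.50, YWHAQ at -0.63 and ESCO1 at 0.49. Among HDAC6 substrates and partners 3 of 9 genes were called lower. They included the tubulins TUBA1C, at -2.57 (adjusted p 0.00558), and TUBA1B, at -2.19 (adjusted p 0.00461), whose near-identical coding sequences make the split of reads between them uncertain. The proliferation list of 10 genes had 0 calls but a median of -1.14, with PLK1 at -1.94 (adjusted p 0.0869).

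After MS-275, the inhibitor of class I deacetylases, no member passed the test, and no gene of the genome did. That fit left out the replicate numbers, and in it limma called 0 of 15883 genes, while 1730 had an unadjusted p under 0.05. On reads recovered from the deposited values edgeR also called 0 genes, and DESeq2 called 575, with 0 members among them. Accordingly 0 of 10 members were called higher, 0 were called lower and 0 passed the adjusted p alone, against 0%, 0% and 0% of all genes. HDAC5 was the only member with an unadjusted p under 0.05. With the replicate numbers as a block, HDAC5 was called higher and 13.7% of all genes were called, as described further on. The labels do not say that these numbers pair libraries. In 4 members, 2 higher and 2 lower, the MS-275 and Control3 libraries did not overlap, against 38.9% of all genes. The median change was 0.16 over the members and -0.0084 over all genes.

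Several members differed widely between the libraries of a group, so the change within each number is given as a value with no test. In 8 of 10 members the difference had the same sign within both numbers, 5 higher and 3 lower, as it had in 79% of all genes. HDAC5 measured 1872 and 1931 normalized counts in Control3 and 3209 and 5117 in MS-275 libraries. It was higher in both MS-275 libraries, by 0.78 on the log2 scale within number 1 and 1.41 within number 2, and the log2 fold change over all 4 libraries was 1.09 (SE 0.36, adjusted p 0.386). Its opposite-strand neighbour G6PC3 was at 0.13 on the same scale (adjusted p 0.978).

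HDAC1 measured 4712 and 6664 normalized counts in Control3 and 6185 and 10178 in MS-275 libraries. The groups overlapped, because the lower MS-275 value was below the higher control, but within numbers 1 and 2 the MS-275 library was higher by 0.39 and 0.61 on the log2 scale. HDAC3 measured 1926 and 3260.3 in Control3 and 2681 and 5659 in MS-275 libraries, with overlap between groups and log2 differences of 0.48 and 0.80 within numbers 1 and 2. Over the 4 libraries the log2 fold change was 0.50 for HDAC1 (SE 0.40, adjusted p 0.777) and 0.64 for HDAC3 (SE 0.51, adjusted p 0.782). With 1 library left out these ran from 0.14 to 0.86 and from 0.098 to 1.18. HDAC2 measured 6473 and 5593 in Control3 and 6556 and 5029 in MS-275 libraries, a log2 fold change of -0.067 with a 95% interval from -0.89 to 0.76. It differed in sign between the numbers, at 0.018 and -0.15. HDAC8 measured 259 and 366 in Control3 and 295 and 364 in MS-275 libraries, with 0.19 and -0.0083 within the numbers.

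Among the other members, HDAC6 measured 791 and 553 normalized counts in Control3 and 505 and 359.7 in MS-275 libraries. Both MS-275 values were below both controls, and the log2 differences within numbers 1 and 2 were -0.65 and -0.62. HDAC7 measured 3184 and 2646 in Control3 and 2168 and 2095 in MS-275 libraries, with no overlap between groups and differences of -0.55 and -0.34. For HDAC9 the values were 708 and 446 in Control3 and 548 and 303 in MS-275 libraries, which overlapped, with -0.37 and -0.56 within the numbers. HDAC4 measured 693 and 482 in Control3 and 774 and 708 in MS-275 libraries, higher in both MS-275 libraries and by 0.16 and 0.55 within the numbers. HDAC11 measured 709 and 1247 in Control3 and 899.5 and 1351 in MS-275 libraries, with overlap and 0.34 and 0.12 within the numbers. Over the 4 libraries none of these 5 passed: the log2 fold changes were -0.63 for HDAC6 (adjusted p 0.676), -0.45 for HDAC7 (adjusted p 0.719), -0.46 for HDAC9 (adjusted p 0.857), 0.36 for HDAC4 (adjusted p 0.851) and 0.23 for HDAC11 (adjusted p 0.961).

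**Figure D3:**
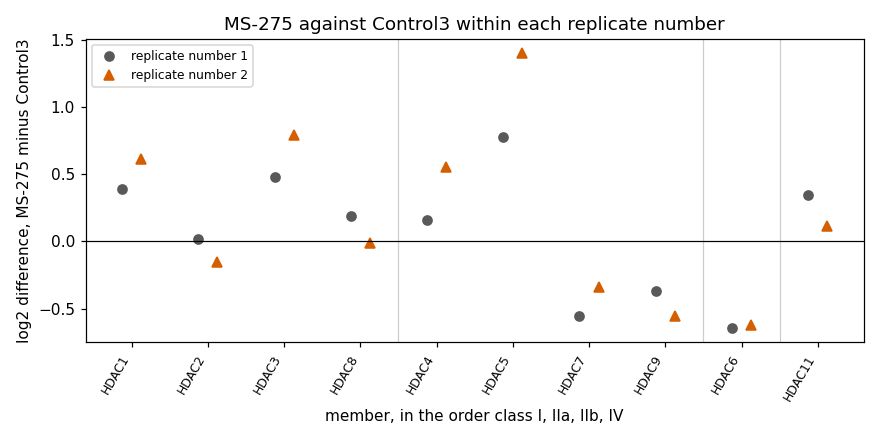
Log2 difference between the MS-275 and the Control3 library of the same replicate number, for each member, with circles for number 1 and triangles for number 2. HDAC5 lies highest in both, at 0.78 and 1.41, and HDAC6, HDAC7 and HDAC9 lie below 0 in both.

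In every partner list 0 genes were called after MS-275, as for the genome. The genes with the smallest p were CHD3, a NuRD remodeller, at a log2 fold change of -1.17 (adjusted p 0.286), SAP18 at 0.33, RCOR2 at -0.61, TBL1X at 0.42, MIDEAS at -0.40, the kinase gene SIK1 at 1.10 (adjusted p 0.434), HSP90AA1 at -0.78 and ESCO2, which acetylates SMC3, at -3.52 (adjusted p 0.329). CHD3 measured 13520.2 and 14288 normalized counts in Control3 and 5896 and 6513 in MS-275 libraries, without overlap. Of the genes known to rise with deacetylase inhibitors, TGFBR2 had the smallest p, with 9942 and 10975 in Control3 and 18883 and 25316 in MS-275 libraries, which gave a log2 fold change of 1.07 (adjusted p 0.348). The proliferation list had a median of -2.82, with CDK1 at 974.6 and 846 in Control3 and 118 and 96.7 in MS-275 libraries, which gave a log2 fold change of -3.08 (adjusted p 0.162).

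Pyruvate gave the most calls among the members, as it did over all genes, and they went in both directions, also within class I. HDAC2 and HDAC9 were called higher and HDAC3 and HDAC11 were called lower, by limma with Benjamini-Hochberg adjustment over 12013 genes. The 2 higher calls among 10 members stood against 31% of all genes called higher, and the 2 lower calls against 23.1% called lower. At an adjusted p under 0.05 with no minimum change 9 of 10 members passed, against 80.9% of all genes. In all 10 members, 4 higher and 6 lower, the pyruvate and Control6 libraries did not overlap, against 90.5% of all genes. The median change was -0.47 over the members and -0.0069 over all genes.

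HDAC2 measured 303 and 358 normalized counts in Control6 and 2493 and 2167 in pyruvate libraries. The groups were far apart, with a log2 fold change of 2.82 (SE 0.12, adjusted p 2.39e-09). Per length, HDAC2 stood at 6.84 and 5.93 RPKM in pyruvate libraries, at percentiles 63.0 and 59.3, against 25.7 and 28.1 in Control6. HDAC1, its closest relative, went the other way, from 5681 and 5579 normalized counts in Control6 to 4476 and 4214 in pyruvate libraries, which gave a log2 fold change of -0.37 (SE 0.064, adjusted p 0.000198). When library totals were made equal instead, all genes had a median of 0.30, and HDAC1 was at -0.06 and did not pass (adjusted p 0.375).

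HDAC3 measured 3069 and 3182 normalized counts in Control6 and 1296 and 1379.95 in pyruvate libraries, lower in both (log2 fold change -1.22, SE 0.078, adjusted p 5.4e-08). With equal library totals HDAC3 was no longer called. HDAC8 measured 106 and 96.6 in Control6 and 109 and 153 in pyruvate libraries. It was the only member that did not pass (log2 fold change 0.35, SE 0.27, adjusted p 0.242), and only HDAC9 had fewer counts in Control6.

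In class IIa, HDAC9 measured 31.4 and 65.1 normalized counts in Control6 and 168 and 168 in pyruvate libraries, which gave a log2 fold change of 1.87 (SE 0.36, adjusted p 0.000473). HDAC4 measured 295 and 367 in Control6 and 617 and 627 in pyruvate libraries, a rise of 0.92 on the log2 scale (SE 0.14, adjusted p 0.000111) that was short of the minimum change. HDAC7 fell from 2824 and 2858 to 1609 and 1649.7 (log2 fold change -0.80, SE 0.074, adjusted p 1.22e-06). HDAC5 fell from 1358 and 1454 to 894 and 846 (log2 fold change -0.69, SE 0.094, adjusted p 3.33e-05), and its opposite-strand neighbour G6PC3 had -2.04. HDAC4 and HDAC9 were thus higher and HDAC5 and HDAC7 lower, a split that was no longer there with a trend over GC and length removed, when HDAC5 and HDAC7 were at 0.41 and 0.13.

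HDAC11 had the largest fall among the members, from 1439.9 and 1370.4 normalized counts in Control6 to 293 and 256 in pyruvate libraries, which gave a log2 fold change of -2.35 (SE 0.12, adjusted p 9.6e-09). It moved from percentiles 72.8 and 71.8 to 36.5 and 33.3. HDAC6 fell from 821 and 892 to 568 and 593 (log2 fold change -0.56, SE 0.11, adjusted p 0.00062). With equal library totals HDAC6 was at -0.25 and did not pass (adjusted p 0.0582).

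**Figure D4:**
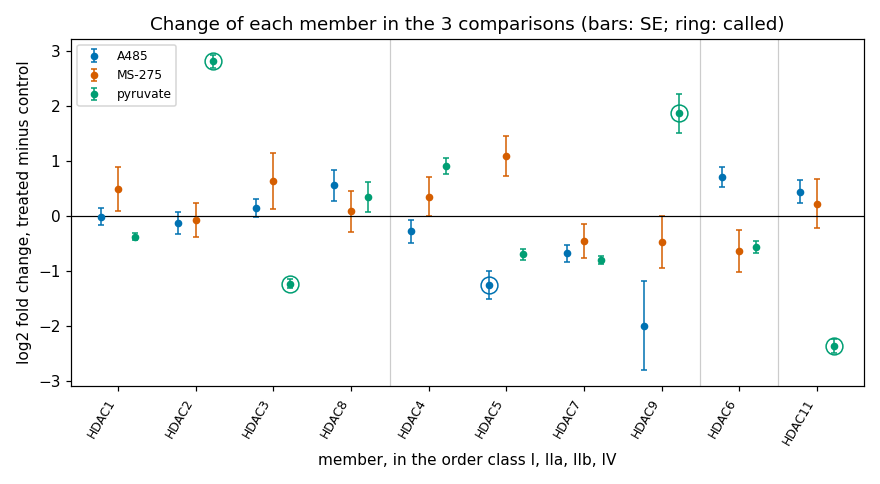
Log2 fold change of each member, treated minus control, in the A485, MS-275 and pyruvate comparisons, with bars of 1 SE and rings around called values. HDAC5 is ringed for A485 at -1.25, and HDAC2, HDAC9, HDAC3 and HDAC11 are ringed for pyruvate at 2.82, 1.87, -1.22 and -2.35.

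Changes in the pyruvate comparison followed the GC content of the transcripts. Over all genes Spearman's rho between GC and log2 fold change was -0.70, across genes that are not independent replicates, and over 10 equal bins of GC the median change was 1.72 in the lowest bin, 1.78 in the next and -1.18 in the highest. The corresponding rho was -0.11 after A485 and -0.016 after MS-275. The members that were higher after pyruvate have longest transcripts of 37.8% (HDAC2), 40.4% (HDAC9), 40.8% (HDAC8) and 55.1% (HDAC4) GC, and those that were lower lie between 47.5% (HDAC1) and 61.2% (HDAC5). With a smooth trend over GC and length removed, HDAC2 was at 1.13 and HDAC11 at -1.17, both still called. HDAC3 was at -0.59 and HDAC9 at 0.29, and neither was called. HDAC4 rose to 1.69 and was called higher. HDAC8 turned to -1.23 and was called lower (adjusted p 0.00147), and HDAC5, HDAC6 and HDAC7 turned to 0.41, 0.24 and 0.13. The part of GC content, or of any step that acts on it, in these changes was not tested.

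**Figure D5:**
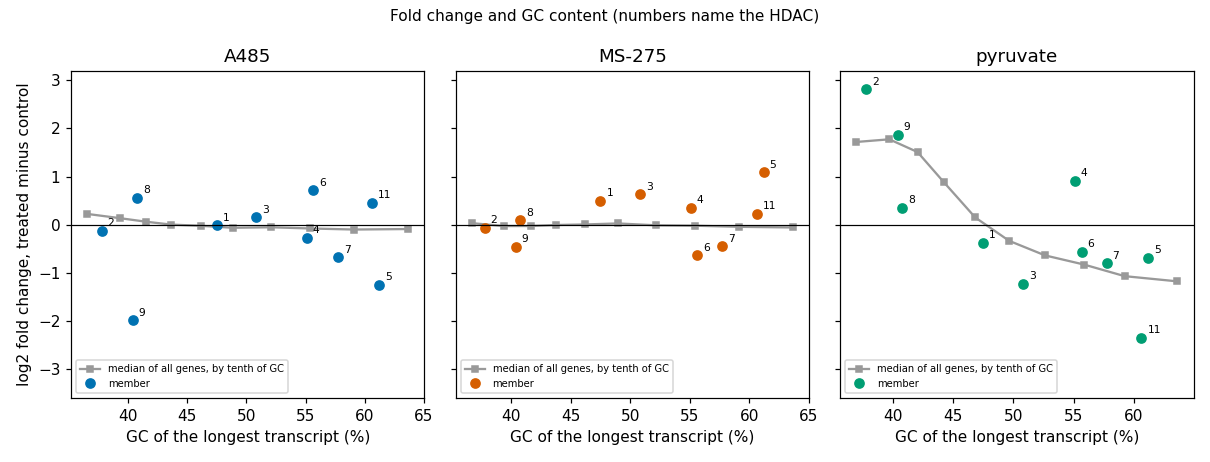
Log2 fold change against the GC content of the longest transcript in the 3 comparisons, with coloured points for the members and grey squares for the median of all genes in each of 10 GC bins. In the pyruvate panel the grey squares go from 1.72 and 1.78 in the lowest bins to -1.18 in the highest, with HDAC2, HDAC4 and HDAC9 above it and HDAC3, HDAC8 and HDAC11 below it.

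The calls in the partner lists after pyruvate stood against 31% of all genes called higher and 23.1% called lower. In the list of HDAC3 corepressor genes 2 of 5 were called higher, NCOR1 and TBL1XR1, and 1 lower. NCOR1, which activates HDAC3, went from 468 and 367 normalized counts in Control6 to 3337 and 3215 in pyruvate libraries, which gave a log2 fold change of 2.98 (adjusted p 1.46e-09), and TBL1XR1 was at 2.44. In the CoREST list 3 of 9 were called higher and 1 lower, with ZMYM2 at 1.97 and ZMYM3 at -1.37. In the SIN3 list 3 of 13 were called higher and 1 lower. The paralogous scaffolds went opposite ways, SIN3A at 1.42 (adjusted p 1.28e-07) and SIN3B at -1.38 (adjusted p 2.95e-08). With the GC and length trend removed SIN3B was at -0.33 and was no longer called. In the NuRD list 2 of 11 were called higher, the histone chaperones RBBP7 (1.64) and RBBP4 (1.61), and 1 lower. In the MiDAC list 0 of 3 were called, with TRERF1 at 0.96.

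Of the 18 class IIa partners and kinases 7 were called higher and 2 lower, with the 14-3-3 genes YWHAZ at 1.91 and YWHAB at 1.33. All 4 listed genes of cohesin acetylation, the cycle in which HDAC8 takes part, were called higher, among them RAD21 at 2.87 and SMC1A, which went from 1542 and 1140.4 normalized counts to 4403 and 4199.9. Among HDAC6 substrates and partners 2 of 9 were called higher, including HSP90AA1 at 3.71 (adjusted p 2.47e-11), and 1 lower, the tubulin TUBA1A at -1.35. Of the 5 genes known to rise with deacetylase inhibitors 3 were called lower, with CDKN1A at -1.87 and CLU at -1.68, and 0 higher. The proliferation list had 9 of 10 genes called higher, with PCNA at 2.46 and CCNB1 at 2.11. Of the 18 partner and list genes named here and called, 8 were still called with the GC and length trend removed. These were NCOR1, SIN3A, HSP90AA1, TUBA1A, RAD21, SMC1A, PCNA and CCNB1, and the rest lost their calls.

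The 3 treatments shared no control libraries, so the differences between their effects on each member were tested in limma, as the effect of one minus the effect of the other, for 3 pairs and with adjustment over all genes of a pair. Between A485 and MS-275 1 of 10 members was called, HDAC5, against 3.81% of all genes. Its effects of -1.25 and 1.09 differed by -2.34 on the log2 scale (SE 0.46, adjusted p 0.0373). That call was lost when any of the libraries was left out except MS-275 replicate 1, with differences from -2.68 to -2.01 and adjusted p up to 0.155. HDAC6 also had effects of opposite sign, 0.72 and -0.63, a difference of 1.35 that did not pass (SE 0.43, adjusted p 0.162). For HDAC1 the difference was -0.51 (95% interval -1.53 to 0.51), and for HDAC2 it was -0.059 (95% interval -0.93 to 0.81).

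Between A485 and pyruvate 6 of 10 members were called, against 54.3% of all genes. The effect of A485 lay below that of pyruvate for HDAC2, with a difference of -2.94 (SE 0.23, adjusted p 2.13e-05), for HDAC9, with -3.86 (SE 1.04, adjusted p 0.0111), and for HDAC4, with -1.19 (SE 0.26, adjusted p 0.00364). It was higher for HDAC11 by 2.80 (SE 0.22, adjusted p 2.14e-05), for HDAC3 by 1.38 (SE 0.15, adjusted p 0.000108) and for HDAC6 by 1.28 (SE 0.19, adjusted p 0.000563). With the GC and length trend removed 3 of the 6 calls were lost: HDAC3 was at 0.80 and HDAC6 at 0.67, under the minimum difference, and HDAC9 at -2.26 (adjusted p 0.0965). HDAC2 was then at -1.37, HDAC4 at -1.78 and HDAC11 at 1.65, and HDAC5 and HDAC8 were called as well, at -1.60 and 1.86. For HDAC7 the effects were -0.68 and -0.80, and the difference was 0.13 (95% interval -0.21 to 0.47).

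Between MS-275 and pyruvate 5 of 10 members were called, against 39% of all genes. The effect of MS-275 lay below that of pyruvate for HDAC2, with a difference of -2.88 (SE 0.29, adjusted p 0.00101), and for HDAC9, with -2.33 (SE 0.66, adjusted p 0.0299). It lay above for HDAC11 by 2.58 (SE 0.46, adjusted p 0.00607), for HDAC3 by 1.86 (SE 0.55, adjusted p 0.0346) and for HDAC5 by 1.78 (SE 0.34, adjusted p 0.00758). HDAC3 and HDAC9 were both no longer called without Control3 replicate 1, MS-275 replicate 2, Control6 replicate 1 or either pyruvate library, and HDAC3 also without Control6 replicate 2. In those fits the HDAC3 difference was 1.32 to 1.91 with an adjusted p up to 0.107, and the HDAC9 difference was -2.33 to -1.82 with an adjusted p up to 0.0922. With the GC and length trend removed HDAC2, HDAC5 and HDAC9 lost their calls, at -1.28 (adjusted p 0.0937), 0.74 (adjusted p 0.0923) and -0.80 (adjusted p 0.274), HDAC3 and HDAC11 were at 1.22 and 1.46, and HDAC4 was called as well, at -1.37. For HDAC6 the difference was -0.073 (95% interval -0.97 to 0.83).

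Across the 12 libraries, each centred on its own experiment, the members varied together in part. Pearson's r was 0.91 between HDAC1 and HDAC3, 0.83 between HDAC2 and HDAC4 and -0.96 between HDAC2 and HDAC11, as a description of 12 libraries. HDAC2, HDAC4 and HDAC11 spread most in the 4 libraries of the pyruvate experiment. HDAC1 spread most in the MS-275 experiment, from 4712 to 10178 normalized counts, against 4214 to 5681 in the pyruvate experiment. HDAC3 ran from 1926 to 5659 in the MS-275 and from 1296 to 3182 in the pyruvate experiment. Of 11989 genes, the pair most like HDAC2 were PSMC6 (r 0.997), a proteasome subunit gene, and UGP2 (r 0.995), which makes UDP-glucose. Most like HDAC1 were ATP6V1B2 (r 0.987), a proton pump subunit gene, and YIPF1 (r 0.980), and most like HDAC3 were ARFIP2 (r 0.994) and COA1 (r 0.987). PSMC6 and UGP2 had log2 fold changes of 2.93 and 2.92 after pyruvate, beside 2.82 for HDAC2, and 0.020 and -0.089 after A485.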

How the data were processed

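Total RNA of IMR90 cells was sequenced in 12 libraries, and 8 mouse muscle libraries were not used here. The authors trimmed reads with Trim Galore (version 0.6.10), aligned them to hg38 with HISAT2 (version 2.2.1), sorted them with SAMtools (version 1.7), counted them per gene with featureCounts (version 2.0.6) and divided the counts by DESeq2 (version 1.34.0) size factors within each experiment. The deposited values, 1 table per library, are this normalized coverage signal, called normalized counts here. The strand setting was not given in the sources used here.

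Values were taken as log2(value + 1), genes with a mean under 10 were left out, and groups were compared in limma (version 3.58.1, R 4.3.3) with empirical Bayes moderation along the mean trend, with no covariate. P-values were adjusted by Benjamini-Hochberg over every gene in the fit, and calls needed an adjusted p under 0.05 and an absolute log2 fold change over 1. Whole reads were recovered from the deposited values, and edgeR (version 4.0.16) and DESeq2 (version 1.42.0) were run on them as alternatives, with 100% of the values whole within 0.001 in each library. Exon length, GC and positions came from GENCODE for hg38, which matched 98.4% to 99.0% of listed genes. The limma fit of each comparison was tested on simulated data, with and without the GC and length trend removed. The fits of differences between effects and the other alternatives were not. Other steps used Python (version 3.11.15), pandas (version 2.3.3) and matplotlib (version 3.10.9).

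The text names all 10 members and, from each list of partners, the 2 called genes with the smallest p, or the 1 with the smallest p where none was called, and the 2 genes most correlated with each of HDAC1, HDAC2 and HDAC3. A pair of genes that this rule names after A485 is not reported here. The members and lists were chosen with earlier results of these data known. Alternatives were another pseudocount, filter, scaling, moderation, threshold or fit, removal of a GC and length trend, a replicate block and leaving out each library.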

Additional observations from a re-analysis of the deposited data

How the results depend on the processing

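With equal library totals the calls turned from 532 genes higher and 1135 lower after A485 (31.9% higher) to 1669 higher (64.6% of calls), 1 member was called higher (HDAC6) and 0 lower, and after pyruvate 1741 genes were lower (71.7% of calls higher, against 57.3%) and 1 member was called lower. The median of all genes then moved to 0.40 after A485, -0.15 after MS-275 and 0.30 after pyruvate. With quantile normalization it moved to 0.12, -0.032 and -0.17, and 42.6% of the A485 calls were higher. After A485, HDAC1, HDAC2 and HDAC4 turned to 0.39, 0.27 and 0.12 with equal totals, and HDAC1 and HDAC2 to 0.22 and 0.11 with quantile normalization. HDAC1 was also at 0.030 with the GC and length trend removed, with or without the block, and at 0.015 in edgeR. HDAC8 turned to -0.051 after MS-275 with equal totals and to -0.31 after pyruvate with quantile normalization. Without the mean trend in the moderation, 258 genes were called higher and 582 lower after A485, 0 members were called lower, and 0 members differed between A485 and MS-275. At a minimum change of 0.58, or none, 2 members were called lower after A485, beside 1320 of 16084 genes at either minimum. After pyruvate 4 members were called lower at 0.58, beside 4096 of 12013 genes, and 6 at no minimum, beside 4832 genes. In 1 fit over all 12 libraries 339 genes were called higher after A485, and 221 higher, 267 lower and 1 member higher (HDAC5) after MS-275. DESeq2 on recovered reads called 348 genes higher and 227 lower after MS-275. The cause of these changes was not tested.

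With the GC and length trend removed, 1239 genes were called lower after pyruvate (67.3% of calls higher), and 1247 with the block as well. HDAC8, HDAC5, HDAC7 and HDAC6 were at -1.23, 0.41, 0.13 and 0.24 in both. In that fit 2 members differed between A485 and MS-275 and 3 between MS-275 and pyruvate. The share of all genes is not given for these counts, so they cannot be read as results about the members. HDAC7 turned to -0.70 between A485 and pyruvate and to -0.57 between MS-275 and pyruvate, and HDAC8 turned to 1.26 between MS-275 and pyruvate.

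The replicate numbers are not said to mark a shared culture or day. Same-numbered libraries deviated together with a correlation of 0.32 for A485, 0.73 for MS-275 and 0.0020 for pyruvate. In the fit that had replicate numbers as a block, 870 genes were called higher and 1616 lower after A485, with 2 members lower (HDAC5 and HDAC9). After MS-275 that fit called 1230 genes higher and 953 lower, 13.7% of all genes, with 1 member higher (HDAC5). At an adjusted p under 0.05 alone 6 members passed after MS-275. The share of all genes at that threshold is not given, so the 6 cannot be read as a result about the members. Between A485 and MS-275 3 members differed, again with no share of all genes beside it. With the block and the GC and length trend removed, 910 genes were higher and 1636 lower after A485, with 2 members lower. After MS-275 that fit called 1194 genes higher, 923 lower and 1 member higher. After pyruvate the block changed no member's call.

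Leaving out each library in turn gave 11 to 411 genes higher, 215 to 913 lower and 0 to 1 members lower after A485, 20 to 318 higher and 11 to 152 lower after MS-275, 0 to 1 members that differed between A485 and MS-275, and 3 to 6 between MS-275 and pyruvate. The log2 fold change after A485 ran from -0.037 to 0.022 for HDAC1 and from -0.33 to 0.075 for HDAC2. After MS-275 it ran from -0.26 to 0.12 for HDAC2, from -0.16 to 0.34 for HDAC8, from -0.18 to 0.64 for HDAC11, from -0.046 to 0.70 for SAP18 and from -0.88 to 0.071 for MIDEAS. The difference between A485 and MS-275 ran from -0.26 to 0.14 for HDAC2, from -0.19 to 0.63 for HDAC11 and from -1.02 to 0.056 for HDAC3, that between A485 and pyruvate from -0.033 to 0.45 for HDAC8, and that between MS-275 and pyruvate from -0.33 to 0.19 for HDAC6. Where a group was left with 1 library, it was assumed to vary like the other group. With the longest transcript as length, HDAC2 was at 15.1, 14.9 and 1.15 RPKM and HDAC8 at 1.11, 1.32 and 0.603 RPKM in Control2, Control3 and Control6.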

Other observations

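HDAC10, the class IIb relative of HDAC6 and no member here, was analysed in the A485 and MS-275 tables, at 22.03 to 46.0 normalized counts in Control2 and A485 libraries and 13.6 to 25.3 in Control3 and MS-275 libraries. Its log2 fold change was 0.086 after A485 (adjusted p 0.940) and -0.49 after MS-275 (adjusted p 0.871). SLC48A1, a heme transporter gene, shares 30 exon bases with HDAC7 on the opposite strand. It had a log2 fold change of 0.63 after A485 (adjusted p 0.0847), 1.79 after MS-275 (adjusted p 0.243) and -2.22 after pyruvate (adjusted p 1.03e-07), beside -0.68, -0.45 and -0.80 for HDAC7. The antisense gene HDAC2-AS2 measured 10.7 to 32.7 normalized counts in the 8 libraries of the A485 and MS-275 experiments, with a log2 fold change of -0.95 after A485 (adjusted p 0.335), beside HDAC2 at 5029 to 7011.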
